A study of Homo sapiens with 6 samples.

Results

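The 10 genes described here encode transcription factors and cofactors that drive or restrain T-cell acute lymphoblastic leukaemia: TAL1, LYL1, LMO2, GATA3, RUNX1, MYB, TLX1, TCF7, LEF1 and BCL11B. They were chosen by name, as every probe on the array whose gene name is one of the 10. This gave 17 of 50586 probes with a usable spot on every array, and 10 of 36328 gene names. The RNA was that of MOLT-4 cells, a long-established human T-cell leukaemia line. Mock cells had received an empty vector, and NUDT16 cells had received NUDT16, which encodes an enzyme that removes 5′ caps from RNA. Capped RNA was immunoprecipitated from total RNA with an antibody that recognises m3G and m7G caps, and the eluates were read on 1-colour arrays, 3 per group. The comparison asks whether the capped RNA of these genes changes when NUDT16 is supplied. Nothing in the labels says whether the replicates came from separate cultures, so p-values measure only the spread between these arrays. RNA from before the precipitation was not analysed here, so RNA amount and cap status cannot be told apart, nor can fewer cells of a kind and less RNA per cell.

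Messenger RNAs made by RNA polymerase II carry an m7G cap, which protects them from 5′-to-3′ decay and recruits the translation machinery. In thymocytes GATA3, TCF7, LEF1, RUNX1, MYB and BCL11B act in succession to commit progenitors to the T lineage. In leukaemia TAL1, LYL1, LMO2 and TLX1 are switched on outside their normal setting. TAL1 then binds DNA in a complex with E proteins, LMO2, LDB1, GATA3, RUNX1 and MYB, and the complex keeps its own members transcribed.

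Each probe is a 60-base DNA oligonucleotide, and several statements below turn on where a probe lies. Shown here, 5′ to 3′ on the transcript strand and with no base marked, are the probes of the 2 genes that were not detected and 3 probes that lie upstream of the 3′ probes of RUNX1 and TCF7. Coordinates are those of the array files, on hg19, for which exon and coding positions were not used here.
LYL1 A_33_P3215422, chr19:13211479-13211538, minus strand: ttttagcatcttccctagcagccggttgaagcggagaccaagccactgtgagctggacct
TLX1 A_23_P24031, chr10:102896585-102896644, plus strand: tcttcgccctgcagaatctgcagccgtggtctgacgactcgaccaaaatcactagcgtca
RUNX1 A_33_P3211818, chr21:36171601-36171660, minus strand: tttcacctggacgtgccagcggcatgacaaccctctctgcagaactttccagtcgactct
RUNX1 A_33_P3211809, chr21:36231787-36231846, minus strand: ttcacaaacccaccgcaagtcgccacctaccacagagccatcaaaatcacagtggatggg
TCF7 A_33_P3250671, chr5:133478508-133478567, plus strand: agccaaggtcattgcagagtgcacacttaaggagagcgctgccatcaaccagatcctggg
The LYL1 and TLX1 probes each have a GC content of 55.0%, as do the TCF7 probe and RUNX1 A_33_P3211818. Over the 17 probes the GC content ran from 30.0% to 55.0% with a median of 45.0%. The longest run of bases that any 2 of them share was 10, and no other probe on the array shares a run of 20 bases with any of them.

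Detection was uneven between arrays. Between 39.3% and 51.1% of 58717 spots for cell RNA lay well above background on the mock arrays, and 42.3%, 14.6% and 52.0% on NUDT16 replicates 1, 2 and 3. NUDT16 replicate 2 therefore stood apart: only 8 of the 17 probes were well above background on it. Of 12 T-lineage markers 10 were well above background on all 6 arrays, among them CD3D, CD3E, CD5, LCK, DNTT and PTCRA. Of the B-lineage markers CD79A was detected on all 6 arrays, while MS4A1 and PAX5 were detected on none, and no myeloid marker was detected on all 6. The probes for NUDT16 itself were at background on all 6 arrays, so they do not check the labels. The single probe called between the groups across the array was for the NUDT16 pseudogene NUDT16P1.

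Of the 17 probes, 15 were well above background on all 3 mock arrays and were tested, for 8 of the 10 genes. Over the whole array 35.1% of probes could be tested. None of the 15 passed the test between NUDT16 and mock arrays (0 of 15, against 1 of 17765 probes or 0.00563% over the array, limma with Benjamini-Hochberg adjustment at 0.05). At an unadjusted p under 0.05 the count was also 0 of 15, against 15 of 17765 (0.0844%). With the replicate number as a block it was 0 of 15 at either level, against 1 called and 1414 at an unadjusted p under 0.05 (7.96%). Groups without overlap were seen for 0 of 15 probes, against 1.37% of all probes (0.332% with NUDT16 higher and 1.04% with NUDT16 lower). The difference was below 0 for 9 probes and above 0 for 6, against 9094 and 8671 of all 17765 probes tested. The median was -0.10 on the log2 scale, beside -0.017 over all probes tested. The 95% intervals reach down to -2.36 and up to 1.66, so the fit without a block does not exclude a change within a probe's interval. Its SEs for these probes ran from 0.58 to 0.74, and with the replicate block from 0.29 to 0.43. Signals below are log2 values from which the 75th percentile of that array was subtracted, so 0 is that percentile. On NUDT16 replicate 2 this percentile, an intensity of 8.57, falls among spots at background: the lowest signal well above background there is 1.18 after scaling, and between -3.69 and -2.17 on the other arrays. Every scaled value of NUDT16 replicate 2, and every difference that uses it, rests on that percentile. A level compares the other arrays for a probe, and NUDT16 replicate 2 with them only under this limit. It does not compare genes with each other.

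**Figure D1:**
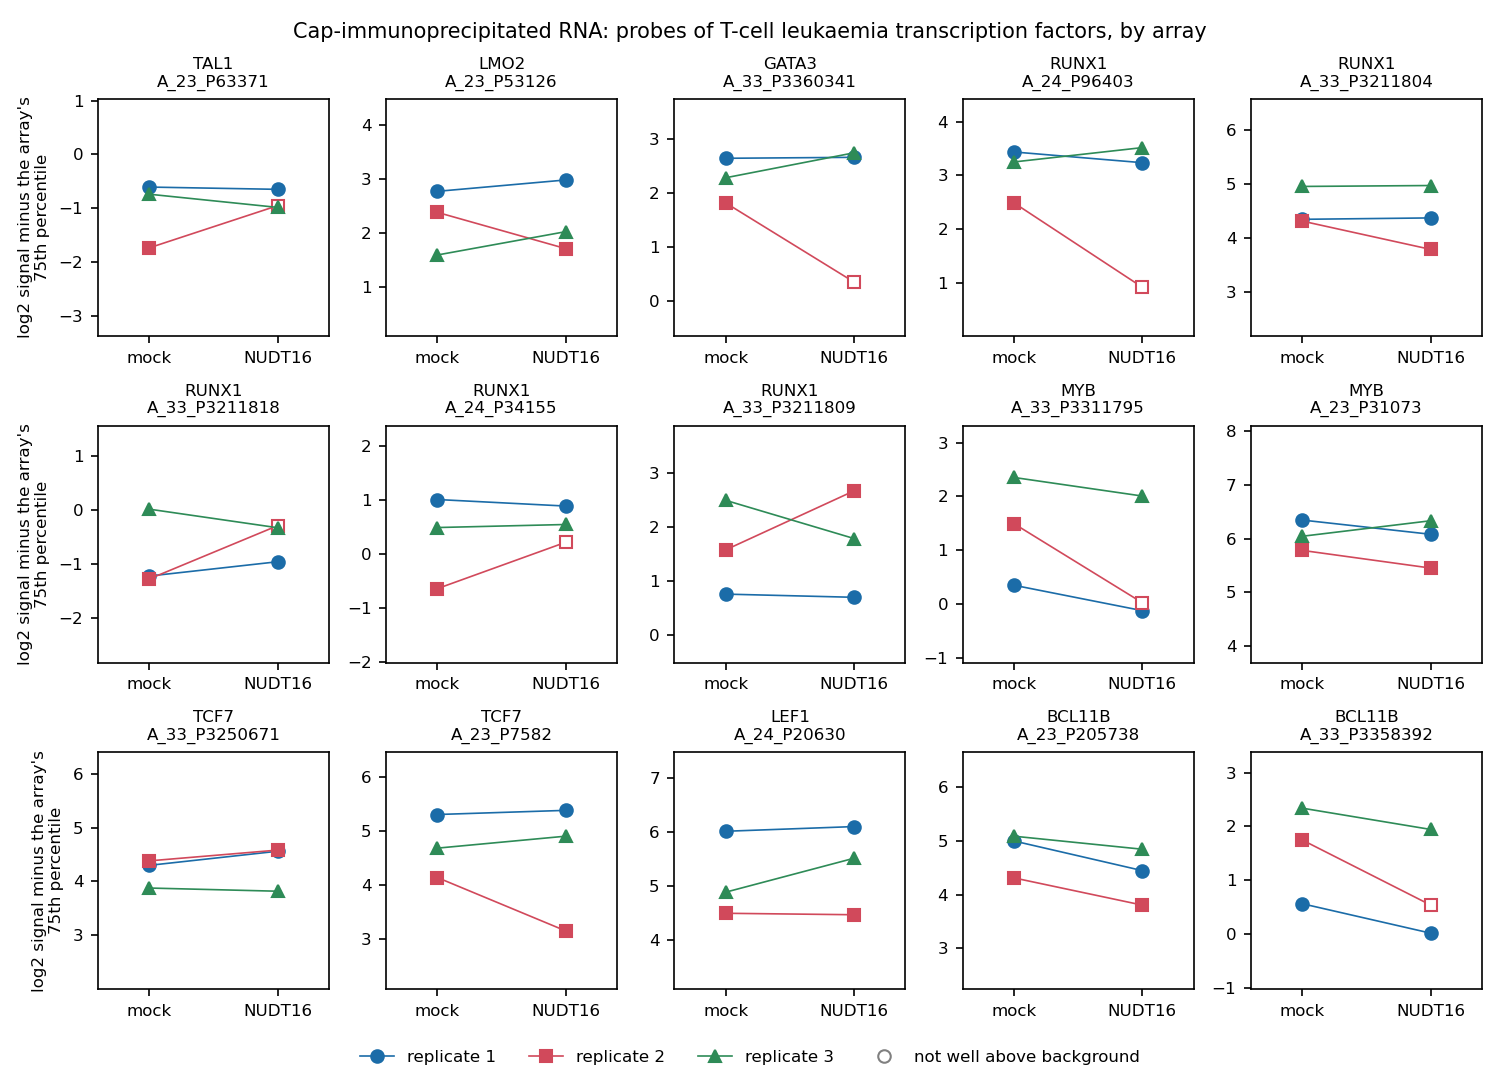
Log2 signal minus the array's 75th percentile (vertical axes, each spanning the same number of log2 units) for the 15 probes tested, on mock and NUDT16 arrays (horizontal axes). Each marker is an array, lines join arrays with the same replicate number, and open markers were not well above background. The groups overlap for all 15 probes, and all open markers are NUDT16 replicate 2.

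TAL1, the basic helix-loop-helix factor whose ectopic activation is a frequent lesion of this leukaemia, lay below the 75th percentile on all 6 arrays. Its probe A_23_P63371 (chr1:47682418-47682477) read -0.61, -1.73 and -0.74 on mock replicates 1, 2 and 3, and -0.65, -0.95 and -0.98 on NUDT16 replicates 1, 2 and 3. Mock replicate 2 was the lowest array with this scaling, but TAL1 was not well above background on NUDT16 replicate 2. Unscaled, NUDT16 replicate 2 was the lowest array, with a log2 intensity of 2.15 against 4.79 on mock replicate 2. It was also the lowest in the authors' values, at 5.88 against 7.09. The mock mean was -1.03 ± 0.62 (SD, n = 3), the NUDT16 mean was -0.86 ± 0.18 (SD, n = 3), and the difference of 0.17 (SE 0.59) did not pass the test (limma adjusted p 0.9995, 95% interval -1.11 to 1.44). The pairs of replicates 1 and 3 differed by -0.042 and -0.24. LYL1, the TAL1 paralogue, stayed at background on all 6 arrays, with unscaled log2 intensities from 2.17 to 3.16. TLX1, the homeobox gene activated by translocation in a separate class of this leukaemia, was likewise below detection, from 2.03 to 3.05 unscaled. Neither has a level here, only a bound.

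LMO2, the LIM-domain adaptor that links TAL1 to GATA factors, was measured well on all 6 arrays. Its probe A_23_P53126 (chr11:33880243-33880302) read 2.77, 2.38 and 1.59 in mock and 2.98, 1.71 and 2.02 in NUDT16. Replicate 1 was the highest in both groups. Mean signals of 2.25 ± 0.60 (SD, n = 3) and 2.24 ± 0.66 (SD, n = 3) differed by -0.0093 (SE 0.62, limma adjusted p 0.9995, 95% interval -1.35 to 1.33). This probe is printed 10 times on the array. Its spots had an SD between 0.028 and 0.17 within an array, below the SD between arrays of a group.

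GATA3, the zinc finger factor needed to begin T-cell development, differed between the groups mainly on a single array. Its probe A_33_P3360341 (chr10:8117072-8117131) read 2.64, 1.82 and 2.28 on mock arrays and 2.66, 0.35 and 2.75 on NUDT16 arrays. Only NUDT16 replicate 2 lay below the mock range, and GATA3 was not well above background there. The difference of -0.33 (SE 0.72) did not pass the test (limma adjusted p 0.9995, 95% interval -1.87 to 1.21), and without NUDT16 replicate 2 it was 0.46. MYB, the factor that keeps progenitors dividing and holds the TAL1 enhancer open in some leukaemias, was well above background on all 6 arrays at its 3′ probe, A_23_P31073 (chr6:135540223-135540282). This probe read 6.34, 5.78 and 6.04 in mock and 6.08, 5.45 and 6.33 in NUDT16, with replicate 2 lowest in both groups. The means were 6.06 ± 0.28 (SD, n = 3) and 5.95 ± 0.45 (SD, n = 3), a difference of -0.10 (SE 0.58, limma adjusted p 0.9995, 95% interval -1.35 to 1.15).

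The second MYB probe, A_33_P3311795, lies 24080 bases upstream (chr6:135516143-135516202) and is designed to an Ensembl transcript, ENST00000528345. It read 0.35, 1.495 and 2.35 in mock and -0.12, 0.028 and 2.01 in NUDT16, with replicate 3 highest in both groups. The NUDT16 array was lower in 3 of 3 same-numbered pairs, by -0.47, -1.47 and -0.34, and the signal of NUDT16 replicate 2 was not well above background. The difference of -0.76 (SE 0.74) was the largest among the 15 probes and did not pass the test (limma adjusted p 0.9995, and 0.482 with the replicate block).

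RUNX1, the DNA-binding subunit of core binding factor, has 5 probes over 71.4 kb of chromosome 21. The most 3′ probe, A_24_P96403 (chr21:36160391-36160450), read 3.44, 2.49 and 3.25 in mock and 3.24, 0.92 and 3.52 in NUDT16. As for GATA3, only NUDT16 replicate 2 stood below the mock range, without being well above background. Its difference of -0.50 (SE 0.73) became 0.32 without that array. The next probe upstream, A_33_P3211804 (chr21:36164083-36164142), was detected on all 6 arrays at 4.35, 4.32 and 4.96 in mock and 4.38, 3.79 and 4.98 in NUDT16. There the pairs of replicates 1 and 3 differed by only 0.027 and 0.017, and the estimate over all arrays was -0.16 (SE 0.60, 95% interval -1.45 to 1.13).

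The 3 remaining RUNX1 probes had estimates above 0 with this scaling, and below 0 with a median shift or no scaling. A_33_P3211818 read -1.22, -1.27 and 0.021 in mock and -0.95, -0.29 and -0.32 in NUDT16. A_24_P34155 (chr21:36193583-36193642), designed to NM_001122607, a short RUNX1 messenger RNA, read 1.01, -0.64 and 0.49 in mock and 0.89, 0.22 and 0.55 in NUDT16. The most 5′ probe, A_33_P3211809, read 0.76, 1.58 and 2.50 in mock and 0.70, 2.67 and 1.79 in NUDT16, and was detected on all 6 arrays. Its highest array was NUDT16 replicate 2, and this probe carries the NM_001122607 accession too. The estimates were 0.30, 0.27 and 0.11, with SEs from 0.61 to 0.69 and limma adjusted p values of 0.9995. In the pair of replicate 2 these probes were at 0.99, 0.86 and 1.095, and on replicates 1 and 3 alone at -0.040, -0.032 and -0.38. Leaving out only NUDT16 replicate 2 gave 0.185, 0.43 and -0.37. A_33_P3211818 and A_24_P34155 were not well above background on that array. On all arrays each of the 5 RUNX1 differences was smaller than its SE.

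TCF7 encodes TCF-1, the HMG-box factor that opens T-lineage genes and answers to beta-catenin. Its 3′ probe A_23_P7582 (chr5:133483237-133483296), also printed 10 times, read 5.31, 4.14 and 4.68 in mock and 5.39, 3.15 and 4.91 in NUDT16. Replicate 1 was highest and replicate 2 lowest in both groups, and the 10 spots had an SD between 0.020 and 0.045 within an array. The difference of -0.23 (SE 0.69, 95% interval -1.73 to 1.27) changed to 0.44 without NUDT16 replicate 2. The internal probe A_33_P3250671, 4729 bases upstream, was the steadier of the pair at 4.30, 4.38 and 3.88 in mock and 4.56, 4.58 and 3.82 in NUDT16. Its estimate was 0.13 (SE 0.58, 95% interval -1.11 to 1.38). On NUDT16 replicate 2 the internal probe was 0.20 above its mock partner, while the 3′ probe was 0.99 lower than its own (-0.99).

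LEF1, the HMG-box relative of TCF7, was detected on all 6 arrays. Probe A_24_P20630 (chr4:108968746-108968805) read 6.02, 4.49 and 4.88 in mock and 6.10, 4.47 and 5.52 in NUDT16. Its 2 highest arrays were the replicate 1 arrays of either group. The means of 5.13 ± 0.79 (SD, n = 3) and 5.36 ± 0.83 (SD, n = 3) differed by 0.23 (SE 0.66, limma adjusted p 0.9995, 95% interval -1.20 to 1.66), with pairs at 0.087, -0.028 and 0.63.

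BCL11B, the zinc finger factor that seals T-cell commitment and is lost in part of these leukaemias, was the only gene with several probes that were all lower in 3 of 3 same-numbered pairs. The 3′ probe A_23_P205738 (chr14:99636021-99636080) read 4.99, 4.31 and 5.08 in mock and 4.44, 3.80 and 4.84 in NUDT16, all well above background. Its pairs differed by -0.55, -0.51 and -0.24. The other probe, A_33_P3358392 (chr14:99640298-99640357), read 0.57, 1.75 and 2.34 in mock and 0.020, 0.54 and 1.94 in NUDT16, with pairs at -0.55, -1.21 and -0.39. On both probes the groups nevertheless overlapped. The differences were -0.43 (SE 0.59, 95% interval -1.71 to 0.85) and -0.72 (SE 0.70, 95% interval -2.23 to 0.79), with limma adjusted p values of 0.9995. With the replicate block the SEs fell to 0.29 and 0.32, and the adjusted p values of 0.505 and 0.482 did not pass either. Together with the second MYB probe, 3 of 15 probes (20.0%) were lower in all 3 pairs, near the 22.8% of all probes tested. These 3 differences also stayed below 0 in every alternative setting that gave them a value, where the median shift and the lack of scaling lower all probes alike and so fix that sign. None was higher in all 3 pairs, against 20.2%.

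**Figure D2:**
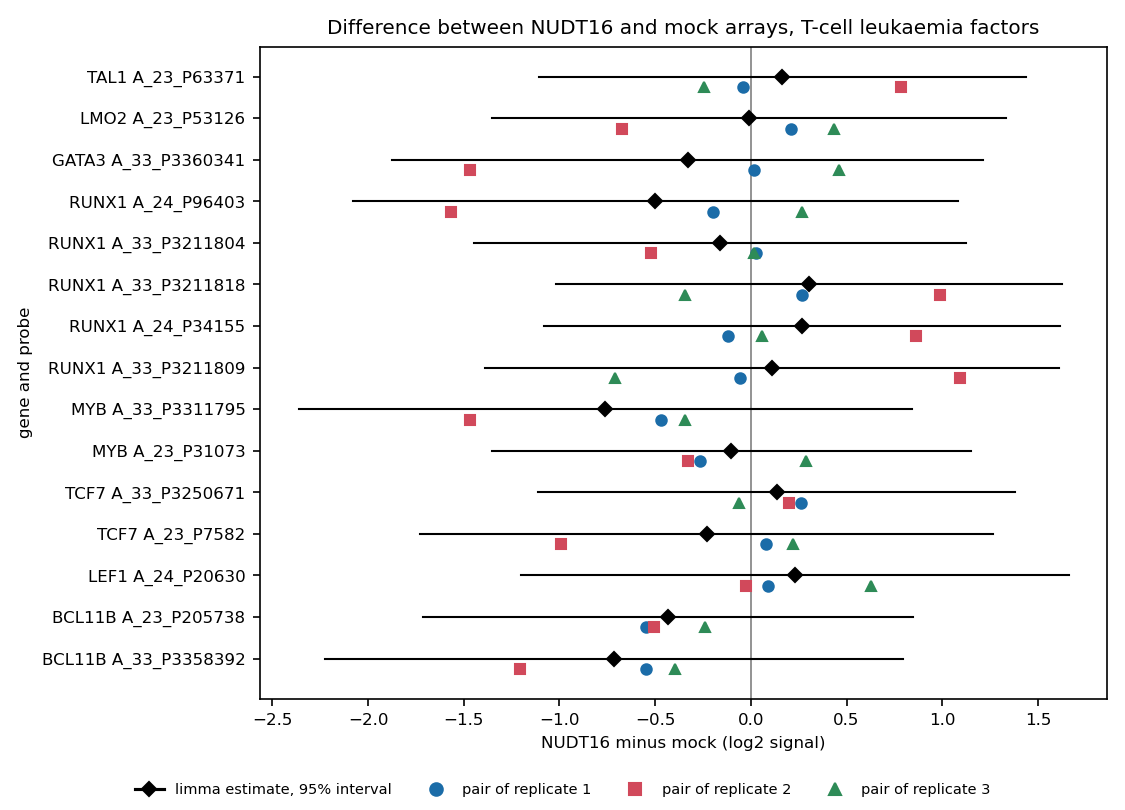
NUDT16 minus mock on the log2 scale (horizontal axis) for each of the 15 probes tested (vertical axis). Diamonds with lines are limma estimates with 95% intervals, and coloured markers are the 3 same-numbered pairs. Every interval spans 0, and only the 2 BCL11B probes and MYB A_33_P3311795 have all 3 pairs below 0.

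Probes of a gene did not vary alike between replicates, here given as replicate 3 minus replicate 1 with no test. On MYB A_33_P3311795 this was 2.0 in mock and 2.13 in NUDT16, and on the 3′ MYB probe -0.30 and 0.25. For BCL11B A_33_P3358392, which lies 4277 bases upstream of the 3′ probe, it was 1.77 and 1.93, against 0.089 and 0.40 at the 3′ probe. The most 5′ RUNX1 probe stood at 1.74 and 1.09 and RUNX1 A_33_P3211818 at 1.24 and 0.63, against -0.18 and 0.28 at the most 3′ one (A_24_P96403). The upstream MYB and BCL11B probes and the most 5′ RUNX1 probe stayed above 1 in both groups with the 4 other backgrounds, scalings and value tables tried, the lowest value being 1.15, whereas the 3′ probes of MYB and RUNX1 changed sign in mock with all but normexp. The 3′ probes moved up too in NUDT16, to as much as 1.28 for BCL11B and 1.23 for MYB with quantile normalization and 1.13 for RUNX1 with the 75th percentile taken over probes detected on all arrays. Each value is a difference between 2 arrays, and its level depends on the scaling.

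The pattern was not shared by every probe that lies upstream of another probe of its gene. TCF7 gave -0.42 and -0.74 at its internal probe A_33_P3250671 and -0.62 and -0.48 at its 3′ probe, although with the 75th percentile taken over probes detected on all arrays these became 0.066 and 0.11, and -0.14 and 0.37. RUNX1 A_24_P34155, 33192 bases upstream of the most 3′ RUNX1 probe, gave -0.52 in mock and -0.34 in NUDT16, although in NUDT16 it was 0.51 with that percentile. That distance is along the genome. This probe is designed to the short RUNX1 messenger RNA, and its distance from the 3′ end of that RNA was not determined, so it may not be an internal probe. A step of at least 1 up in both groups was seen for 3 of the 15 probes, near the 18.9% of all probes tested, and a step of at least 1 down for 0 of 15, against 20.7%. The slide, the scan and the replicate number coincide in this series, so what separates replicate 3 from replicate 1 cannot be told apart.

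**Figure D3:**
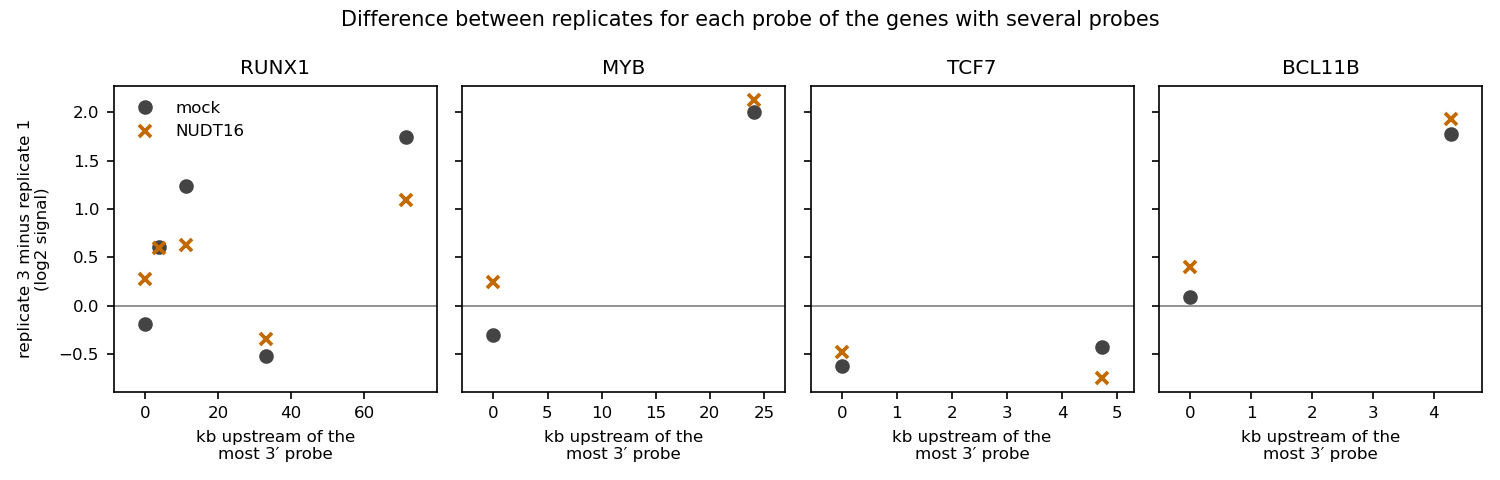
Replicate 3 minus replicate 1 on the log2 scale (vertical axis, shared) against the distance in kb of each probe upstream of the most 3′ probe of its gene (horizontal axes), for RUNX1, MYB, TCF7 and BCL11B. Circles are mock and crosses NUDT16, each a difference between 2 arrays. The upstream probes of MYB and BCL11B and the most 5′ RUNX1 probe lie above 1 in both groups, and both TCF7 probes lie below 0, although other scalings turn some of the TCF7 values positive.

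For each of the 6 members with a probe detected on all arrays, the genes with the nearest profile were sought among 5695 other gene names, by the root mean square difference over the 6 arrays after centring each probe on its own mean. LEF1 lay nearest to CBFA2T3, a corepressor found in TAL1 complexes, at 0.069 on the log2 scale, and next to EIF4A3 at 0.11. BCL11B was nearest to CTNNB1, which encodes beta-catenin, at 0.13, and to RAD54L2 at 0.14. MYB had SLC44A1 at 0.068 and KIAA0922 at 0.093, RUNX1 A_33_P3211804 had LARP4 at 0.073 and ODF2 at 0.10, and TCF7 had DIAPH1 at 0.075 and TIMP2 at 0.12. LMO2 was nearest to MDH1 at 0.091 and GUSB at 0.11. The median over the genes compared was between 0.70 and 1.05, depending on the member. With 6 arrays and so many genes, near matches are a description only.

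The wider network was read from a list of 55 regulators in 4 groups, of which 35 genes had a tested probe. None of their 48 probes was called (limma, 0 of 48 also at an unadjusted p under 0.05). With the replicate block 0 of 48 were called and 3 of 48 had an unadjusted p under 0.05, against 7.96% of all probes. The difference was below 0 for 31 probes and above 0 for 17, against 9094 and 8671 of all 17765 probes tested. The median was -0.34, beside -0.017 over all probes tested. In 17 of 48 (35.4%) NUDT16 was lower in all 3 pairs and in 5 (10.4%) higher, where all probes tested gave 22.8% and 20.2%. By pair, the median was -0.16 and -0.058 in the pairs of replicates 1 and 3 and -0.60 in the pair of replicate 2. Only 10 of the 91 probes of the list were detected on all 6 arrays. Without NUDT16 replicate 2 the median was -0.11, and on replicates 1 and 3 alone it was -0.15.

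Complex partners and paralogues of the members had a median of 0.033 over 10 probes, and of 0.44, -0.76 and 0.12 in the pairs of replicates 1, 2 and 3. Their extremes were RUNX3 A_23_P51231 at 0.60 (SE 0.63), the RUNX family member of cytotoxic T cells, and TCF4 A_23_P27332, an E protein, at -1.12 (SE 0.74). The other RUNX3 probe, A_33_P3221748, had the opposite sign, at -0.40 (SE 0.76). Neither RUNX3 probe nor the TCF4 probe was well above background on NUDT16 replicate 2. Homeobox genes had a median of 0.27 over 7 probes, with HOXA9 A_33_P3416231 highest at 0.64 (SE 0.74). By pair that median was -0.015, 0.64 and -0.36, so it was above 0 only in the pair of replicate 2. HOXA9 read 4.60 on NUDT16 replicate 2 and between 1.64 and 2.36 on the other 5 arrays, but unscaled its log2 intensity on NUDT16 replicate 2 was the lowest of the 6, at 7.70 against 8.84 or more. Its differences in the other pairs were -0.015 and -0.36. The other HOXA9 probe, A_23_P500998, was well above background on no array. TLX3, NKX2-1 and MEIS1 were among the genes detected on no array.

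Partners of TCF7 and LEF1 on the WNT side had a median of -0.19 over 10 probes. Among them CTNNB1 A_33_P3421695 was lowest at -1.01 (SE 0.66), and TLE4 A_33_P3302662, a corepressor, highest at 0.82 (SE 1.14). That CTNNB1 probe was not well above background on NUDT16 replicate 2, where its pair was at -1.92. The other CTNNB1 probe, A_23_P29495, was detected on all 6 arrays and was at -0.33 (SE 0.61). The TLE4 value rests on NUDT16 replicate 2, with pairs at -0.88, 4.07 and -0.73, and on replicates 1 and 3 alone TLE4 was at -0.80 (limma adjusted p 0.061). Of 21 probes for other lymphoid and leukaemia factors, from 14 genes, 18 lay below 0, against 9094 of all 17765 probes tested. Of these 21, 12 (57.1%) were lower in all 3 pairs, against 22.8% of all probes tested. Their median was -0.38, and by pair it was -0.16, -1.11 and -0.16. Most of these probes were not well above background on NUDT16 replicate 2. ETS1 A_24_P751074 marked the low end at -1.09 (SE 0.70) and ID3 A_23_P137381, an inhibitor of E proteins, the high end at 0.44 (SE 0.93). Each tested probe named had a limma adjusted p of 0.9995, and between 0.482 and 0.6865 with the replicate block.

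**Figure D4:**
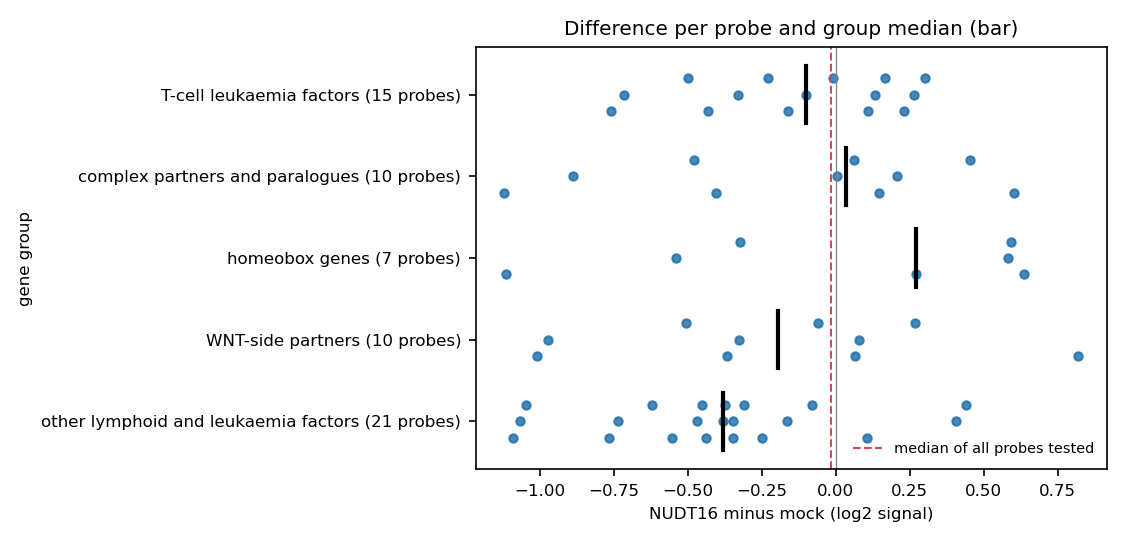
NUDT16 minus mock on the log2 scale (horizontal axis) for each tested probe of the T-cell leukaemia factors and of 4 groups of related regulators (vertical axis). Points are probes, black bars are group medians, and the dashed line is the median of all probes tested. The group medians run from -0.38 for other lymphoid and leukaemia factors to 0.27 for homeobox genes, with points of every group on both sides of 0. The homeobox median was above 0 only in the pair of replicate 2.

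Because NUDT16 replicate 2 detected so little, the pairs of replicates 1 and 3 were also fitted alone with the replicate number as a block. None of the 15 member probes was called there (lowest limma adjusted p 0.275, for BCL11B A_33_P3358392 at -0.47), while 503 of 17765 probes (2.83%) were. This fit leaves few degrees of freedom, and in it limma gave every member probe the same SE of 0.26. The p values of this fit therefore rest on a spread shared by all probes. The member median was 0.012, beside -0.0022 over all probes, and 10 of the 15 differences had the opposite sign to the fit on all arrays. BCL11B, the second MYB probe, TCF7 A_33_P3250671 and LEF1 kept theirs, at -0.40 and -0.47 for BCL11B, -0.41 for MYB A_33_P3311795, 0.10 for TCF7 and 0.36 for LEF1. Of the related regulators 2 of 48 probes (4.17%) were called: HOXA5 A_23_P93772 was lower (-1.0 on the log2 scale, limma adjusted p 0.0123), and ID3 A_23_P137381 was higher (0.94, limma adjusted p 0.0214). HOXA5 was well above background on 3 mock arrays and only on replicate 3 of the NUDT16 arrays, so its size is set against a value at background, and ID3 was well above background on all arrays but NUDT16 replicate 2. On all 6 arrays their differences were -0.54 and 0.44, neither called, with limma adjusted p values of 0.9995.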

How the data were processed

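The deposited scanner files give each spot's fluorescence intensity on a linear scale. Per the file headers they were written by Agilent Feature Extraction 10.7.3.1, with background subtracted and detrended within the array, surrogates for dim spots, and hg19 coordinates. The value table the authors deposited holds log2 values, and how it was made is not given in the sources used here. Control spots and outlier spots were left out. Each array's log2 processed intensity was shifted by its 75th percentile, and spots of a probe were averaged (13 probes had no usable spot on some array). Detection, or being well above background, needed over 50% of a probe's spots. The 17765 probes detected on every array of at least 1 group entered limma (version 3.58.1, R 4.3.3), two-sided and without a block, with Benjamini-Hochberg adjustment at 0.05.

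The 3 slides, each with its own scan, hold a mock and a NUDT16 array of the same number. Deviations of same-numbered arrays correlated at 0.84, 0.39 and 0.77 over 17765 probes, so the numbers pair the arrays; the pairing changed no call for the members. The number of arrays limits precision. Gene names are the files' own, and 16 of 17 member probes matched RefSeq (GRCh38.p14). All tested or detected member probes were named, with the extreme probe in each direction of every group of related regulators (1 such probe is not reported here) and the 2 nearest profiles. Members, lists and settings were chosen with earlier results of these data known. The procedure was tested on simulated data with the spread of these arrays, where it recovered only very large changes. Without a block it recovered 0% of probes changed by 1, 2 or 3 on the log2 scale, and 93% of those changed by 6.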

Additional observations from a re-analysis of the deposited data

How the results depend on the processing

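Over 16 other settings no member probe was called, with 15 tested in each but 17 when unfiltered and 8 when detection on 6 of 6 arrays was required; the lowest limma adjusted p was 0.275, and 0 had an unadjusted p under 0.05. Leaving aside the median shift and the lack of scaling, which move all probes alike, 203 alternative values for single probes included 166 of the same sign and 37 of the other. Depth limits NUDT16 replicate 2 most, where 7 of the 15 probes tested were not well above background. The cause of the changes below was otherwise not tested. The replicate block left the member median at -0.10 and changed no call among members or related regulators.

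The count of 1 probe called over the array was 0 with normexp, with no scaling, when unfiltered, when detection on 6 of 6 arrays was required, and in the authors' table (limma, with 11, 1, 225, 2 and 10 at an unadjusted p under 0.05), and 503 on replicates 1 and 3, where 2 related regulators were called. Leaving out each array gave 1 throughout. The member median was -0.47 with normexp, -0.81 with the median shift (all probes -0.73) and -1.19 without scaling (all probes -1.10), and ran from -0.29 to 0.19 (0.185 without NUDT16 replicate 2) when an array was left out. The median of related regulators was -1.05 with the median shift, -1.42 without scaling, 0.27 unfiltered (all probes 0.82), 0.19 when detection on 6 of 6 arrays was required (all probes 0.25), and -0.55 to -0.11 when an array was left out.

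Signs changed as follows. With normexp RUNX1 A_33_P3211809 was at -0.42, LEF1 at -0.42 and TCF7 A_33_P3250671 at -0.47. Quantile normalization gave LMO2 0.029 and TAL1 -0.54. With the median shift TAL1 was at -0.55, RUNX1 A_24_P34155 at -0.45, RUNX1 A_33_P3211809 at -0.60, RUNX1 A_33_P3211818 at -0.41, LEF1 at -0.48 and TCF7 A_33_P3250671 at -0.58. Without scaling these 6 were at -0.92, -0.82, -0.98, -0.78, -0.86 and -0.95. The authors' table gave LMO2 0.061, TAL1 -0.46 and RUNX1 A_33_P3211818 -0.46. The replicate block on replicates 1 and 3 gave MYB A_23_P31073 0.012, LMO2 0.32, TCF7 A_23_P7582 0.15, TAL1 -0.14, GATA3 0.24 and, for RUNX1, A_24_P34155 -0.032, A_33_P3211809 -0.38, A_33_P3211804 0.022, A_24_P96403 0.034 and A_33_P3211818 -0.040.

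When each array was left out in turn, 4 probes kept their sign but not their size: BCL11B A_23_P205738 (-0.68 to -0.15), BCL11B A_33_P3358392 (-1.27 to -0.31), MYB A_33_P3311795 (-1.45 to -0.28) and RUNX1 A_33_P3211818 (0.078 to 0.73). The others ranged from -0.74 to 0.46 for GATA3, -0.14 to 0.68 for LEF1, -0.38 to 0.26 for LMO2, -0.29 to 0.15 for MYB A_23_P31073 and -0.19 to 0.38 for TAL1. RUNX1 A_24_P34155 ranged from -0.20 to 0.63, RUNX1 A_24_P96403 from -0.98 to 0.32, RUNX1 A_33_P3211804 from -0.46 to 0.13 and RUNX1 A_33_P3211809 from -0.37 to 0.62. TCF7 A_23_P7582 ranged from -0.68 to 0.44 and TCF7 A_33_P3250671 from -0.020 to 0.39.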
